A study of Homo sapiens with 12 samples.

Results

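The genes described here set the anaplastic large cell lymphoma line Karpas299 apart from 2 other lines of the same disease, DEL and SUPM2. They were chosen by one rule. A gene counts as higher in Karpas299 where both Karpas299 arrays lie above the highest of the 4 arrays of DEL and SUPM2, and as lower where both lie below the lowest of those 4. Of 18417 genes with a value, 2130 (11.6%) were higher and 1930 (10.5%) were lower by that rule, and the other 14357 overlapped. The comparison rests on 2 of the 12 arrays of the series against 4 others, and the SUDHL-1 arrays were not used.

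Anaplastic large cell lymphoma is a malignancy of T cells that carry the surface receptor CD30 and often lack parts of the T-cell receptor. Karpas299, DEL and SUPM2 are established human lines known to carry the NPM1-ALK fusion kinase, which signals through STAT3 and drives a cytotoxic and T helper 17-like set of genes. MHC class II molecules, which present peptides to helper T cells, are also found on activated human T cells. Lines of one disease come from different patients and have been cultured for years, so each has its own set of expressed and silent genes.

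Each line gave 1 array of side population (SP) cells and 1 array of main population (MP) cells. SP cells are those that stay dim after the DNA dye Hoechst, because efflux pumps remove it, and MP cells are the remaining, dye-bright cells. The cells were untreated apart from the dye, were grown to log phase in medium with serum and antibiotics, and were sorted by flow cytometry, and their amplified RNA was read on Affymetrix gene arrays. No genotype, passage or culture number is given for any of the 6 arrays, so the SP and MP arrays of a line may come from 1 culture. The cells are said to have been sorted in triplicate, but not whether an array holds 1 sort or a pool of them, so the p-values here reflect no more than how these 6 arrays vary. All values below are log2 signals after RMA, a background correction, normalization and probe set summary, and a pair of values for a line is in the order SP, MP. A difference is the limma estimate of Karpas299 minus the other 4 arrays with population as a covariate, ± its standard error, on the log2 scale. A gap is the distance between the nearest Karpas299 value and the nearest of the other 4.

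The 6 array medians over all probe sets lay between 5.24 and 5.35. The Karpas299 SP and MP arrays correlated at r = 0.979 across genes, while their correlations with DEL arrays were 0.946 to 0.952 and with SUPM2 arrays 0.923 to 0.928. These correlations are across genes, which are not independent replicates. CD30 (TNFRSF8) read 9.05 and 10.51 in Karpas299, 8.66 and 8.86 in DEL and 7.72 and 7.63 in SUPM2, and BATF3, a transcription factor typical of the disease, lay between 10.62 and 11.14 on all 6 arrays. Probe sets of ALK also carry other gene names and were not analysed here. CD3E, CD3G and CD8A read at most 4.76, 3.74 and 4.94 on any of the 6 arrays. Of the other T-cell markers, CD7 read 7.16 to 7.63 on the 6 arrays. CD2, CD3D, CD4, CD5 and CD247 differed between lines and are given below. The mean level of the listed B-cell markers was 4.42 to 4.46 in Karpas299 and 4.35 to 4.79 in the other lines, and that of myeloid markers 4.63 to 4.8 against 4.75 to 5.05. For epithelial, stromal and endothelial markers the mean level was 5.19 on both Karpas299 arrays against 5.22 to 5.29. Erythroid, platelet and mast cell markers averaged 4.38 and 4.44 in Karpas299 against 4.53 to 4.72. In bulk samples such as these, fewer cells of a type and less RNA per cell cannot be told apart.

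Most genes outside the range sat close to it. The median gap was 0.177 for higher and 0.178 for lower genes, and a gap of at least 1 was seen for 135 higher and 117 lower genes. In another 512 genes 1 Karpas299 array lay above the other lines and the other array below them. At the edge of the rule, NEUROD4 entered as higher with a distance of 0.000184 and KEL missed it by 0.0002 with its lower Karpas299 value at 4.70363 against 4.70383 in SUPM2 MP. On the lower side MRFAP1L1 entered with a distance of 0.000245, and AFAP1-AS1 missed because its Karpas299 MP and DEL MP values were both 4.71. The same rule with DEL set apart gave 1756 higher genes (9.53%) and 2483 lower (13.5%), and with SUPM2 set apart 3184 higher (17.3%) and 2383 lower (12.9%). By this count Karpas299 had fewer genes outside the range of the others than SUPM2 in either direction, and lay between DEL and SUPM2 in genes higher and below both in genes lower.

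By limma with Benjamini-Hochberg adjustment over all genes, 59 genes (0.32%) were higher in Karpas299 and 40 (0.217%) lower at an adjusted p under 0.05, and all 99 lay outside the range. Their differences measured 1.44 to 6.95 for higher and 1.39 to 5.41 for lower genes. These calls treat 6 arrays as independent, and they were fragile. Leaving out either Karpas299 array, DEL MP or SUPM2 SP left 0 calls, leaving out DEL SP left 10 higher and 7 lower, and leaving out SUPM2 MP left 5 and 2. With the SP and MP arrays of each line averaged first, so that 3 lines were compared, limma called 0 genes at an adjusted p under 0.05, with 955 at an unadjusted p under 0.05. The direction of these 99 genes is fixed by the rule, since all lie outside the range. For a single gene, 2 arrays against 4 cannot go below p = 0.133 in the exact permutation test used. Its two-sided p is 2 times the smaller tail.

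IL22, a cytokine of T helper 17 and T helper 22 cells that acts on epithelia, had the largest gap of all genes. It read 11.56 and 11.89 in Karpas299, 6.59 and 4.62 in DEL and 3.64 and 4.24 in SUPM2. The difference was 6.95 ± 0.82, a 124-fold ratio on this scale (limma adjusted p = 0.0468). The SUPM2 SP value lay under 3.76, the limit of the dimmest 25% of that array, so the size of the ratio is uncertain. DEL SP was the nearest of the others, and the gap to it was 4.96. IL26, the neighbouring cytokine gene, overlapped between the lines, at 10.21 and 10.85 in Karpas299 and 9.96 to 10.93 elsewhere. IL22 was the only cytokine of 47 on the list that passed the test. Of the 47, 3 lay above the range (6.38%) and 4 below (8.51%), both shares under those over all genes.

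IL32, an inflammatory cytokine of T and NK cells, was the next of these, at 10.15 and 10.64 in Karpas299 and 7.47 to 8.58 in the other lines. TGFB1, a cytokine that restrains T cells, lay lower, at 5.96 and 6.28 against 6.89 to 8.41. Their limma adjusted p were 0.114 and 0.211, so neither passed.

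**Figure D1:**
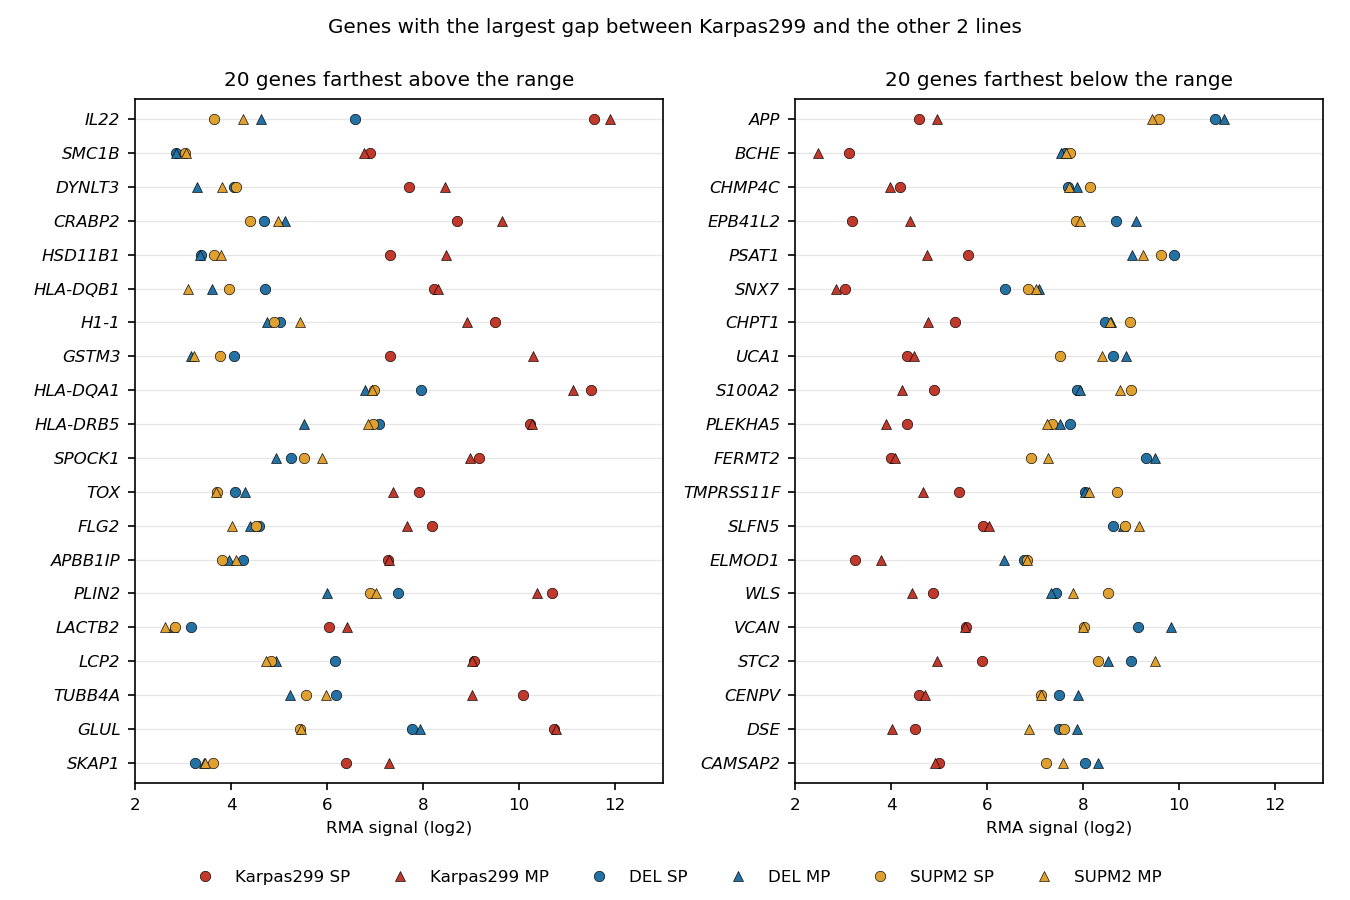
Log2 RMA signal of the 20 genes with the largest gap above (left) and below (right) the range of the other lines; circles are SP arrays, triangles MP arrays, and colours mark the cell line. The red Karpas299 symbols stand apart on every row, and IL22 shows the widest gap, at 4.96, on the left and APP, at 4.48, on the right.

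Genes of different functions followed it in size of the gap. SMC1B, the cohesin subunit of meiotic chromosomes, read 6.90 and 6.77 in Karpas299, 2.85 and 2.86 in DEL and 3.04 and 3.06 in SUPM2. CRABP2, which carries retinoic acid to its nuclear receptors, read 8.70 and 9.65 in Karpas299, 4.69 and 5.13 in DEL and 4.40 and 4.98 in SUPM2. Both had a limma adjusted p of 0.00621, with differences of 3.88 ± 0.17 and 4.37 ± 0.20.

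HSD11B1, which regenerates cortisol from cortisone, read 7.32 and 8.47 in Karpas299 and at most 3.79 in the other lines. DYNLT3, a dynein light chain, read 7.71 and 8.45 against at most 4.10. TOX, a nuclear factor of T-cell development and exhaustion, read 7.93 and 7.37 against 3.70 to 4.29. All of these passed the test (limma adjusted p = 0.0173, 0.0212 and 0.0198).

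GSTM3, a glutathione S-transferase, differed within the line as well, at 7.31 in Karpas299 SP and 10.29 in Karpas299 MP. The other 4 arrays read 3.17 to 4.07, and the difference of 5.24 ± 0.80 did not pass (limma adjusted p = 0.0876). GLUL, glutamine synthetase, read 10.73 and 10.77 in Karpas299, but DEL at 7.78 and 7.93 and SUPM2 at 5.44 and 5.47 differed from each other by a similar step, and its limma adjusted p was 0.194. PLIN2, the coat protein of lipid droplets, read 10.69 and 10.38 against 6.01 to 7.49 (limma adjusted p = 0.0286).

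Among genes far below the range, APP, the amyloid precursor protein, read 4.59 and 4.96 in Karpas299, 10.76 and 10.94 in DEL and 9.59 and 9.44 in SUPM2. Its difference was -5.41 ± 0.52, with the Karpas299 level lower by a 42.5-fold ratio (limma adjusted p = 0.0286). BCHE, butyrylcholinesterase, read 3.13 and 2.49 in Karpas299 and 7.54 to 7.73 on the other 4 arrays, a difference of -4.82 ± 0.20 (limma adjusted p = 0.00621). The other lines agreed closely for BCHE and stood about 1 unit apart for APP.

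CHMP4C, an ESCRT-III subunit of the abscission checkpoint, read 4.18 and 3.99 in Karpas299 and 7.69 to 8.15 elsewhere. EPB41L2, a membrane skeleton protein, read 3.19 and 4.40 against 7.86 to 9.10. S100A2, a calcium-binding protein, read 4.90 and 4.22 against 7.87 to 8.99. SLFN5, an interferon-inducible member of the Schlafen family, read 5.92 and 6.05 against 8.62 to 9.16. All of these passed (limma adjusted p = 0.00958, 0.0286, 0.0376 and 0.0151).

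FERMT2, the integrin activator kindlin-2, and VCAN, the matrix proteoglycan versican, had gaps of 2.84 and 2.43 below the range but missed the test. FERMT2 read 4.0 and 4.08 in Karpas299, 9.31 and 9.49 in DEL and 6.92 and 7.27 in SUPM2. VCAN read 5.56 and 5.55 in Karpas299, 9.14 and 9.83 in DEL and 8.03 and 8.0 in SUPM2. In both genes DEL and SUPM2 also differed from each other, and that spread enters the error (limma adjusted p = 0.168 and 0.131).

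Gene lists by pathway were then read against the background shares of 11.6% and 10.5%. MHC class II genes had the highest share above the range among the 22 lists plotted, and genes of serine synthesis and ATF4 targets the highest share below it. The 22 are part of 69 lists and families, and some that are not plotted also lay off the background. ALK fusion partners and adaptors had 6 of 23 lower (26.1%) and 1 higher, and ribosomal proteins 13 of 52 lower (25%) and 5 higher. The lists were chosen with earlier results of these data known, so the counts describe them and were not tested.

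**Figure D2:**
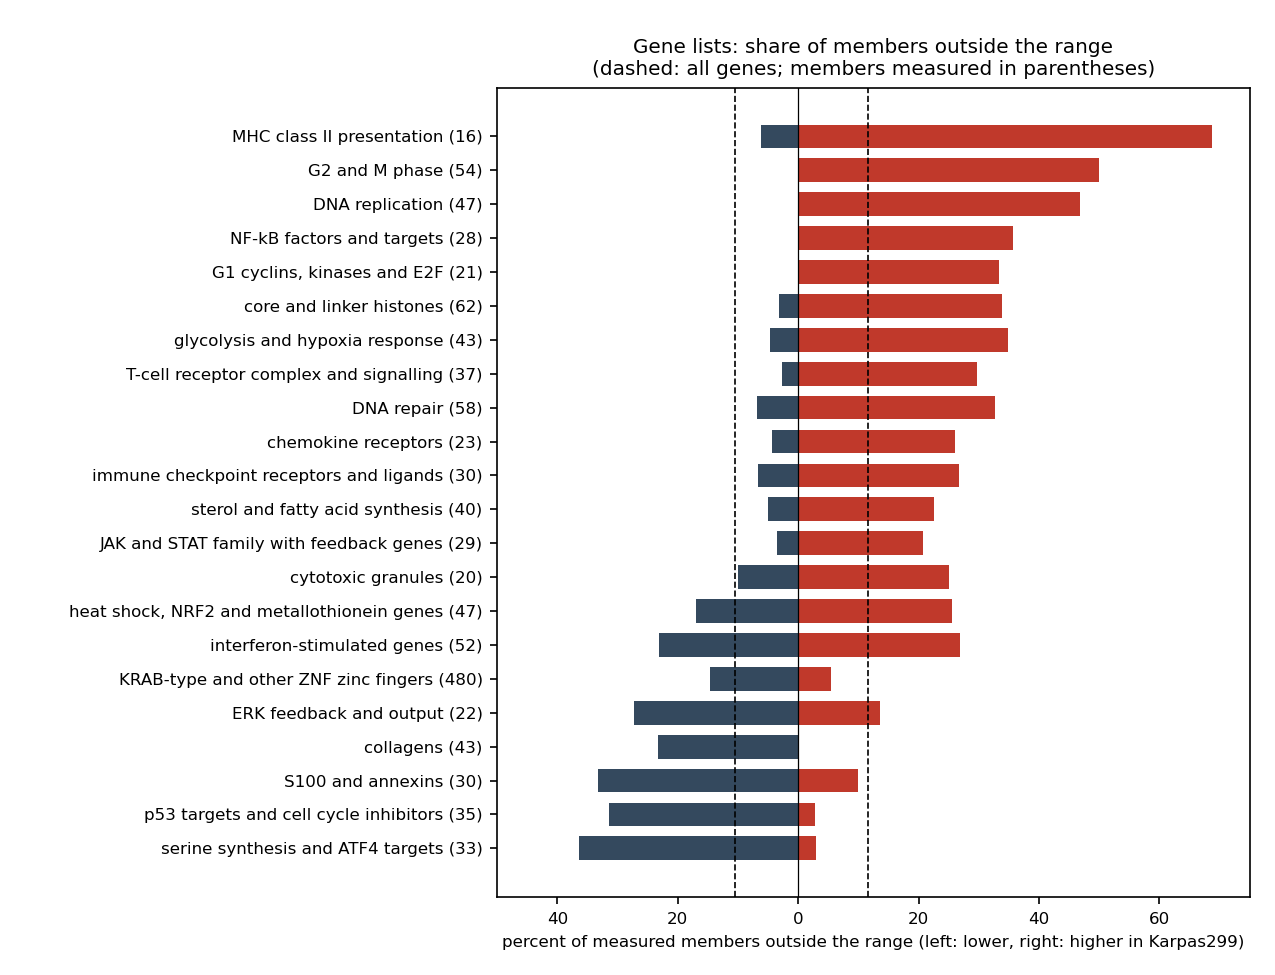
Share of each gene list's measured members that lay outside the range, in percent, with higher genes to the right and lower genes to the left; dashed lines mark the shares over all genes, 11.6% and 10.5%. MHC class II genes reach 68.8% on the right and serine synthesis and ATF4 targets 36.4% on the left.

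Of 16 measured MHC class II genes, 11 were higher in Karpas299 (68.8%) and 1 lower (6.25%), with a median difference of 0.94 against -0.01 over all genes. HLA-DQA1, the alpha chain of HLA-DQ, read 11.51 and 11.13 in Karpas299, 7.96 and 6.79 in DEL and 6.99 and 6.93 in SUPM2. HLA-DQB1, its beta chain, read 8.23 and 8.32 in Karpas299, 4.71 and 3.61 in DEL and 3.96 and 3.10 in SUPM2. HLA-DRB5, a DR beta chain that only some haplotypes carry, read 10.22 and 10.28 against 5.53 to 7.09. These 3 genes passed the test, with differences of 4.15 ± 0.30, 4.43 ± 0.36 and 3.64 ± 0.43 (limma adjusted p = 0.0184, 0.0212 and 0.0462).

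The remaining presentation genes differed less. HLA-DPA1 read 12.57 and 12.55 in Karpas299 and 11.44 to 11.91 elsewhere, and HLA-DPB1 read 10.16 and 10.94 against 8.48 to 9.80. HLA-DMA, part of the peptide editor, read 10.27 and 10.59 against 8.86 to 9.89. HLA-DMB, HLA-DOA and HLA-DOB overlapped, in each case because at least 1 SUPM2 array was as high as a Karpas299 array. LGMN, a lysosomal protease, was the member below the range, at 4.48 and 4.71 against 5.35 to 6.97.

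Of 4 factors that switch on these genes, 3 lay above the range. CIITA, the class II coactivator, read 6.57 and 6.5 in Karpas299 against 6.35 to 6.49, a gap of 0.01. RFX5 and RFXANK, subunits of the complex that binds class II promoters, lay above the range with differences of 1.06 ± 0.28 and 0.47 ± 0.20, and RFXAP, the third subunit, overlapped. None of these passed (limma adjusted p = 0.242 to 0.978 over the 4 genes). HLA genes vary in sequence between people and the HLA-DR beta genes are near copies, so probe sets can read a line's alleles unequally, and the array level of a single HLA gene is uncertain for that reason. Probe sets of HLA-DRA, HLA-DRB1 and CD74 carry several gene names and were not analysed here.

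**Figure D3:**
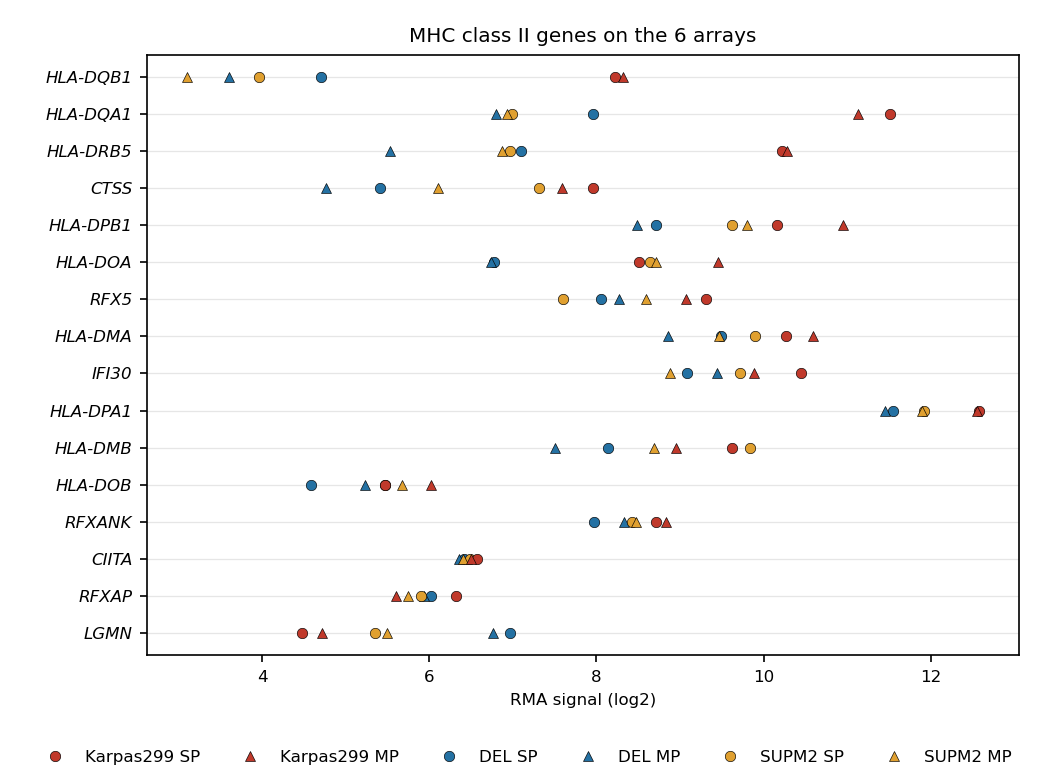
Log2 RMA signal of the 16 measured MHC class II genes on the 6 arrays, ordered by the difference between Karpas299 and the other lines (circles SP, triangles MP, colours as lines). The Karpas299 symbols stand clear of the rest for HLA-DQB1, HLA-DQA1 and HLA-DRB5, lie among them for RFXAP, and are only just above them for CIITA.

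The sequences just before the start of the 3 genes that passed are shown because they are the promoters through which RFX, the Y-box factor NF-Y and CIITA act. Each is the 160 bases before the annotated RefSeq start on GRCh38.p14, written 5′ to 3′ on the gene's strand, with the Y box CTGATTGG in capitals where a search of both strands found it. HLA-DQA1 is at chr6:32637246-32637405 on the plus strand, HLA-DQB1 at chr6:32666658-32666817 on the minus strand and HLA-DRB5 at chr6:32530288-32530447 on the minus strand.
HLA-DQA1: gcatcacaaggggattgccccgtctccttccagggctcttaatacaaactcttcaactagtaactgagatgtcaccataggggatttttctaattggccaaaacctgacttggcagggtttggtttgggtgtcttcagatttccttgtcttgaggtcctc
HLA-DQB1: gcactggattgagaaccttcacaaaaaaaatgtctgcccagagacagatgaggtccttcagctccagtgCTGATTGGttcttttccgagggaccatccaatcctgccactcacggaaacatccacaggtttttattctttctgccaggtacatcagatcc
HLA-DRB5: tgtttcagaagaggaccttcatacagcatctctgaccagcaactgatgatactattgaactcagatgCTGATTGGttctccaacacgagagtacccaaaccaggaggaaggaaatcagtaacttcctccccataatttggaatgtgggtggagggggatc
The Y box began 91 bases before the start in HLA-DQB1 and 93 in HLA-DRB5, and these letters were not in the HLA-DQA1 window. The search took exact matches only, and the HLA-DQA1 window holds the near match ctaattgg, which is not counted. Of 13 class II genes with a promoter entry, 3 held the letters, HLA-DQB1, HLA-DRB5 and HLA-DMA, against 3.91% of 27305 genes in windows of the same length. The match is a description of the reference genome, not of these lines.

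Of 37 measured genes of the receptor complex and its signalling, 11 were higher in Karpas299 (29.7%) and 1 lower, with a median difference of 0.29. The 3 genes that passed encode adaptors of the signalling chain. LCP2 (SLP-76), the scaffold below ZAP70, read 9.07 and 9.02 in Karpas299, 6.16 and 4.95 in DEL and 4.83 and 4.74 in SUPM2. SIT1, a transmembrane adaptor, read 7.02 and 7.70 against 3.81 to 4.30, and SKAP1, which couples the receptor to integrins, read 6.39 and 7.30 against 3.26 to 3.61. Their limma adjusted p were 0.0334, 0.0212 and 0.0212. The kinase LCK, at 4.93 and 5.27 against 5.01 to 5.37, and the adaptor LAT, at 7.72 and 7.02 against 5.59 to 8.13, overlapped.

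ZAP70, the kinase recruited to the activated receptor, read 7.55 and 8.02 in Karpas299, 5.24 and 4.83 in DEL and 5.33 and 6.17 in SUPM2. MALT1, the paracaspase that links the receptor to NF-kB, read 7.17 and 7.04 against 5.01 to 5.89. Both groups of arrays were separate, with gaps of 1.38 and 1.15, but their limma adjusted p were 0.101 and 0.113. SH2D1A, the adaptor SAP of SLAM receptors, is on the list of NK receptors and adaptors and passed, at 6.19 and 6.46 against 3.47 to 3.78 (difference 2.68 ± 0.18, limma adjusted p = 0.0151). APBB1IP (RIAM), which carries signals from the receptor to integrins, was among the 20 largest gaps, at 7.28 and 7.29 against 3.8 to 4.25 (limma adjusted p = 0.0137).

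The surface chains did not follow one pattern. CD5, a co-receptor that dampens signalling, read 8.70 and 9.34 in Karpas299, 5.84 and 7.04 in DEL and 5.30 and 4.91 in SUPM2 (limma adjusted p = 0.131). CD4 read 9.65 and 9.56 in Karpas299 and 9.32 and 9.66 in SUPM2, and 5.39 and 4.22 in DEL. CD3D gave a like split, at 9.71 and 9.55 in Karpas299, 9.34 and 8.86 in SUPM2 and 5.42 and 5.94 in DEL. For CD4 Karpas299 overlapped with SUPM2, and for CD3D the gap to it was 0.21. CD2 read 4.54 and 4.34 in Karpas299, like DEL at 4.42 and 4.38, and 9.42 and 8.96 in SUPM2. CD247, the zeta chain, was higher in SUPM2 (8.5 and 8.11) than in Karpas299 (7.51 and 7.62), and DEL was lowest (5.45 and 4.66).

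Cytotoxic granule genes also varied by line. CTSW, a cysteine protease of cytotoxic cells, read 7.06 and 7.0 in Karpas299 and 4.99 to 5.23 elsewhere (difference 1.92 ± 0.16, limma adjusted p = 0.0212). GZMA, granzyme A, read 9.90 and 10.41 in Karpas299, 8.78 and 8.19 in DEL and 3.88 and 3.62 in SUPM2, so SUPM2 was the far one of the other lines. PRF1, perforin, read 10.80 and 10.79 against 11.52 to 11.73, a difference of -0.82 ± 0.16 (limma adjusted p = 0.158). GZMB overlapped, with SUPM2 SP highest at 12.10. In all, 5 of 20 granule genes lay above the range (25%) and 2 below (10%), against 11.6% and 10.5% over all genes.

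Of 28 NF-kB factors and targets, 10 were higher (35.7%) and 0 lower, with a median difference of 0.30, and 0 passed the test by limma. RELA and RELB, DNA-binding subunits, read 9.10 and 8.53 against 7.57 to 8.22, and 7.37 and 7.54 against 6.40 to 6.99. ICAM1, an adhesion molecule induced by NF-kB, read 9.37 on both Karpas299 arrays against 8.11 to 8.86. TNFAIP3 (A20), the feedback inhibitor, read 8.47 and 8.03 in Karpas299, 6.03 and 6.05 in DEL and 6.83 and 7.61 in SUPM2.

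In the JAK and STAT family with its feedback genes, 6 of 29 were higher (20.7%) and 1 lower, and none passed by limma. STAT5A read 6.27 and 6.45 in Karpas299, 4.99 and 5.43 in DEL and 4.90 and 5.11 in SUPM2 (difference 1.25 ± 0.18, limma adjusted p = 0.0778). STAT3, the main transcription factor below the ALK fusion, read 10.69 and 10.71 against 9.64 to 10.10. STAT5B and STAT4 lay above the range by 0.60 and 0.52. The count of higher genes was 11 without either Karpas299 array and 10 without either SUPM2 array. SOCS3, a target that inhibits JAK kinases, overlapped, as did JAK3.

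Of 22 genes of the ERK pathway, 6 were below the range (27.3%) and 3 above, and without Karpas299 MP 6 were below and 6 above. Without DEL SP 5 were above. EGR1, an immediate early target, read 8.30 and 8.55 in Karpas299 and 9.54 to 10.41 elsewhere. DUSP6, the phosphatase that feeds back on ERK, read 5.07 and 5.44 against 6.36 to 7.30. ETV4, an ETS factor, was higher, at 8.26 and 7.37 against 5.41 to 6.12. No gene of this list passed by limma, and these 3 had adjusted p of 0.103, 0.155 and 0.102.

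Cell cycle genes were higher in Karpas299 in large numbers and by small gaps. Of 47 DNA replication genes 22 were higher (46.8%), of 54 genes of G2 and M phase 27 (50%) and of 21 G1 cyclins, kinases and E2F genes 7 (33.3%), and 0 genes of these 3 lists were lower. Median differences were 1.21, 0.85 and 0.79. Limma called 0 genes of these lists at an adjusted p under 0.05, and over all genes 2027 had an unadjusted p under 0.05.

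The list median of the replication genes was lowest in SUPM2, at 6.66 and 6.08, against 7.96 and 8.43 in DEL and 8.42 and 8.75 in Karpas299. ORC1, a subunit of the origin recognition complex, read 7.99 and 8.62 in Karpas299, 6.65 and 7.51 in DEL and 4.74 and 5.22 in SUPM2. LIG1, the ligase that joins Okazaki fragments, read 8.31 and 9.06 in Karpas299, 7.11 and 7.46 in DEL and 5.77 and 5.71 in SUPM2. TYMS, thymidylate synthase, had the largest gap of the list, 1.01, at 11.53 and 11.59 against 8.86 to 10.52. Against DEL alone 23 of the 47 replication genes were higher, and against SUPM2 alone 45. Leaving out the DEL MP array raised the replication count from 22 to 40, leaving out Karpas299 SP raised it to 37, and leaving out any other array gave 22 to 24. The list median of the G1 genes was 7.35 and 7.65 in Karpas299, 7.20 and 7.78 in DEL and 6.49 and 6.53 in SUPM2. Against DEL alone 11 of the 21 G1 genes were higher and 2 lower, and against SUPM2 alone 13 and 1. The G1 list gave 11 higher genes without Karpas299 SP.

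Among mitotic genes, MKI67, the proliferation antigen Ki-67, read 9.27 and 9.11 in Karpas299, 8.47 and 8.48 in DEL and 7.77 and 8.12 in SUPM2. TTK, the spindle checkpoint kinase MPS1, read 7.39 and 7.38 in Karpas299, 6.23 and 6.37 in DEL and 6.23 and 4.52 in SUPM2. FOXM1, the transcription factor of G2 genes, read 9.08 and 9.59 against 7.23 to 8.28. SUPM2 MP was the lowest array for TTK and FOXM1, and for the list median, at 7.15 against 8.10 to 9.01 on the other 5 arrays. The count against DEL alone was 37 of 54 and against SUPM2 alone 35.

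Of 62 core and linker histone genes, 21 were higher (33.9%) and 2 lower, with a median difference of 0.78. H1-1, a linker histone expressed in few cell types, read 9.49 and 8.92 in Karpas299, 5.02 and 4.75 in DEL and 4.90 and 5.44 in SUPM2 (difference 4.18 ± 0.28, limma adjusted p = 0.0151). H4C4 read 8.97 and 8.87 against 6.63 to 7.17 (limma adjusted p = 0.0292). H2BC12 lay below the range and passed, at 9.42 and 9.08 against 10.44 to 10.94 (limma adjusted p = 0.0493). Core histone genes are near copies, so the level of any single one is uncertain. Without Karpas299 MP the count of higher histones was 37 instead of 21.

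DNA repair genes gave 19 higher (32.8%) and 4 lower of 58, and none passed by limma. The list median was lowest in SUPM2, at 6.4 and 6.46, against 6.92 and 7.35 in DEL and 7.29 and 7.38 in Karpas299. Against SUPM2 alone 35 of the 58 were higher and 8 lower, and against DEL alone 21 and 11. The count of higher genes thus rested more on SUPM2 than on DEL. MGMT, which removes methyl groups from guanine, read 7.33 and 7.82 in Karpas299 and 5.75 to 6.14 elsewhere (limma adjusted p = 0.0768). ATM, the double-strand break kinase, was lower, at 5.54 and 4.93 against 6.38 to 7.32. LIG4, the ligase of end joining, was also lower, at 6.56 and 5.99 against 7.31 to 8.10, and without Karpas299 SP 8 genes of the list were lower.

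Genes of serine synthesis and targets of ATF4 were the list that lay furthest to the other side. ATF4 is the transcription factor of the amino acid and integrated stress response, and its targets include enzymes and carriers that supply serine, cysteine and other amino acids. Of 33 measured genes, 12 were lower in Karpas299 (36.4%) and 1 higher, with 30 of 33 differences negative and a median of -0.73. PSAT1, the aminotransferase of serine synthesis, passed the test as the only one of them. It read 5.60 and 4.76 in Karpas299, 9.89 and 9.03 in DEL and 9.62 and 9.26 in SUPM2, a difference of -4.27 ± 0.19 (limma adjusted p = 0.00621).

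CTH, which makes cysteine from cystathionine, read 5.81 and 4.65 in Karpas299, 8.28 and 7.42 in DEL and 8.96 and 8.64 in SUPM2. STC2, a secreted glycoprotein induced by stress, read 5.90 and 4.97 against 8.32 to 9.49. AARS1, alanyl-tRNA synthetase, read 8.40 and 7.89 against 9.61 to 10.39. In these genes both Karpas299 arrays were low, SP above MP, and the limma adjusted p were 0.0645, 0.0609 and 0.101.

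The steps of serine synthesis on either side of PSAT1 did not match it. PHGDH, the first enzyme, read 5.76 and 5.67 in Karpas299 and 5.12 and 5.33 in SUPM2, while DEL read 8.53 and 8.45. PSPH, the last enzyme, read 7.17 and 7.24 in Karpas299 against 7.72 to 8.46. SLC7A11, the cystine carrier, read 6.31 and 4.47 in Karpas299, 8.13 and 6.81 in DEL and 8.90 and 9.23 in SUPM2. SLC3A2, its partner chain, read 9.37 and 9.01 against 9.96 to 10.42. ATF4 itself overlapped, at 10.81 and 10.43 against 10.63 to 11.46, and so did DDIT3, TRIB3 and CHAC1, which were highest in SUPM2. Without Karpas299 SP the count of lower genes in this list was 20 instead of 12.

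**Figure D4:**
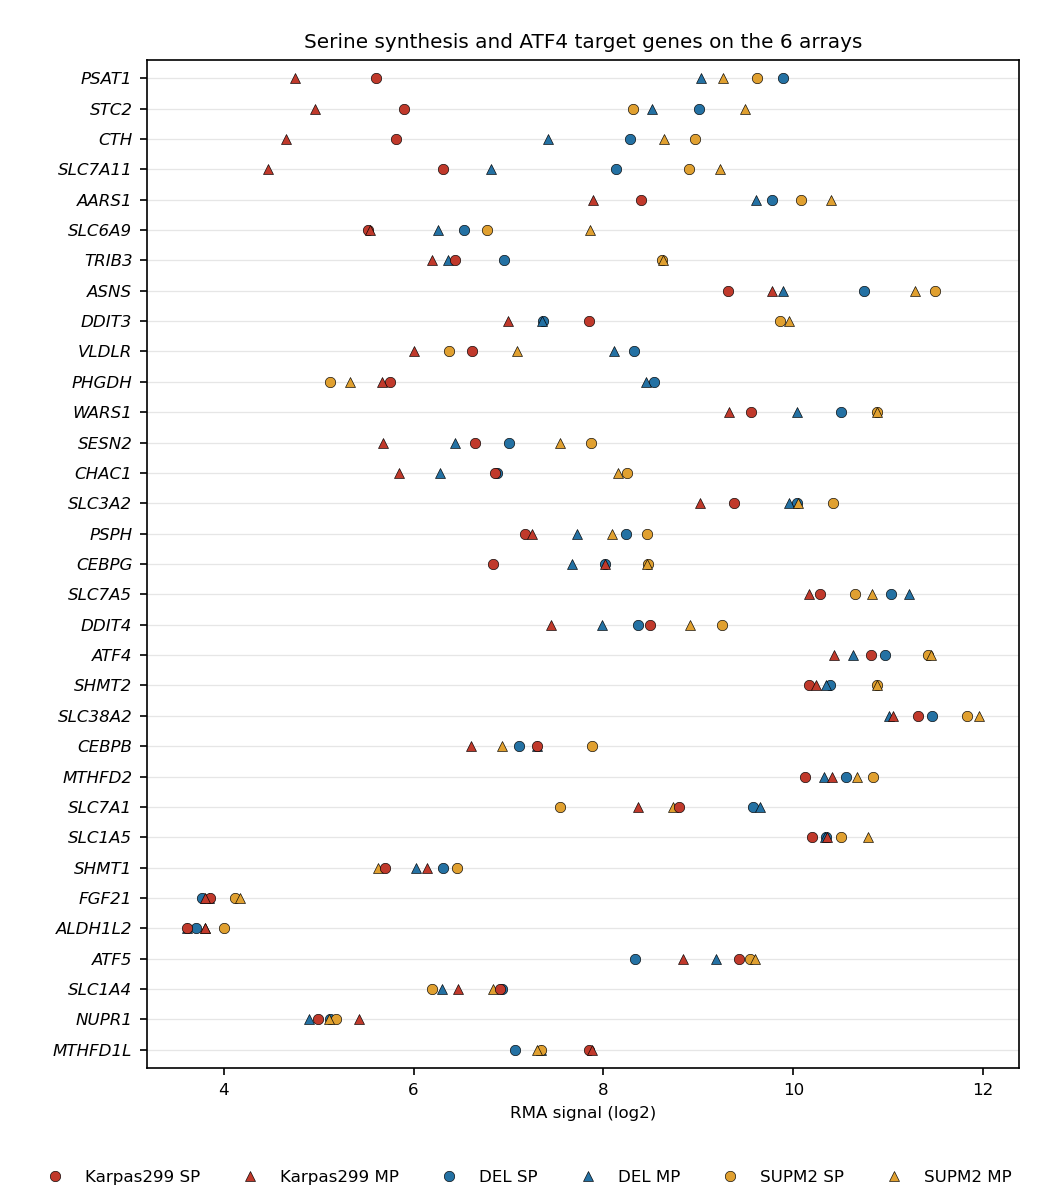
Log2 RMA signal of the 33 measured genes of serine synthesis and ATF4 targets on the 6 arrays, ordered from the most negative difference (circles SP, triangles MP, colours as lines). PSAT1, STC2, CTH and AARS1 show both red symbols left of all others, and PHGDH shows DEL alone to the right.

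The motif TGATGNAA of composite C/EBP-ATF elements was sought on both strands in the 160 bases before the start of these genes. It was present in 5 of 28 with a promoter entry, MTHFD1L, ASNS, SLC1A5, CEBPG and FGF21, against 2.60% of 27305 genes. Among 9 of them that were lower in Karpas299, 1 held it, ASNS, and among 18 that overlapped 3 held it. The 1 higher gene with an entry, MTHFD1L, held it as well. PSAT1 had no entry in the promoter table.

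Targets of p53 and cell cycle inhibitors gave 11 lower (31.4%) and 1 higher of 35, with a median difference of -0.37, and none passed by limma. CDKN1A, the CDK inhibitor p21, read 6.95 and 7.17 in Karpas299, 7.79 and 8.17 in DEL and 10.23 and 10.45 in SUPM2. MDM2, the ubiquitin ligase of p53, read 8.43 and 8.0, 8.99 and 8.95, and 10.66 and 10.83 in the same order. TP53INP1 read 4.21 and 4.39, 6.30 and 5.72, and 8.55 and 8.49. In each the lines ranked Karpas299, DEL, SUPM2 from low to high, and the step from DEL to SUPM2 was the larger. FAS, the death receptor, read 5.85 and 5.79 against 6.85 to 8.13. The count of lower genes was 17 without Karpas299 SP and 18 without DEL MP.

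Genes of glycolysis and the hypoxia response were higher in 15 of 43 cases (34.9%) and lower in 2. NDRG1, a hypoxia-induced gene, read 10.57 and 10.88 in Karpas299 and 8.78 to 8.98 elsewhere, and was the member that passed (difference 1.84 ± 0.18, limma adjusted p = 0.0286). ALDOC, aldolase C, read 11.49 and 11.68 against 8.86 to 10.05. P4HA2, a collagen prolyl hydroxylase subunit, read 8.22 and 8.09 in Karpas299, 5.38 and 5.75 in DEL and 6.5 and 6.74 in SUPM2. PFKFB3, which raises the activator of phosphofructokinase, lay below the range, at 9.37 and 9.31 against 9.98 to 10.37.

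Lipid synthesis held 2 called genes among 9 higher (22.5%) and 2 lower (5%) of 40. FADS2, the delta-6 desaturase, read 9.18 and 8.62 in Karpas299, 6.14 and 6.37 in DEL and 5.34 and 5.57 in SUPM2 (limma adjusted p = 0.0486). HMGCS1, an early enzyme of sterol synthesis, read 9.42 and 9.54 against 7.56 to 7.97 (limma adjusted p = 0.036). ELOVL6, a fatty acid elongase, was lower, at 3.50 and 4.33 against 5.61 to 7.33 (limma adjusted p = 0.087). The count of lower genes was 7 without Karpas299 SP and at least 3 with any other array left out.

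Stress genes lay outside the range on both sides. MT1E, a metallothionein that binds zinc and copper, read 8.73 and 8.93 in Karpas299 and 5.91 to 6.54 elsewhere (limma adjusted p = 0.0252). MT1F read 8.21 and 9.63 against 5.70 to 6.79. HMOX1, heme oxygenase 1, was lower, at 8.0 and 8.18 in Karpas299, 12.30 and 11.43 in DEL and 9.56 and 9.37 in SUPM2. AKR1C1, a target of NRF2, was lower too, at 4.48 and 4.51 against 5.83 to 7.55. The glutathione S-transferases GSTM1 and GSTM3 of the same list lay above the range. GSTM1 read 9.65 and 10.03 in Karpas299 and 5.43 to 8.32 elsewhere (limma adjusted p = 0.357). The list of heat shock, NRF2 and metallothionein genes had 12 higher (25.5%) and 8 lower (17%) of 47. Metallothionein genes are near copies whose single levels are uncertain.

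Interferon-stimulated genes lay outside the range on both sides, 14 higher (26.9%) and 12 lower (23.1%) of 52. MX1, an antiviral GTPase, read 8.22 and 8.37 in Karpas299 and 6.44 to 6.85 elsewhere (difference 1.62 ± 0.16, limma adjusted p = 0.0302). OAS1, which senses double-stranded RNA, read 6.99 and 7.22 against 4.56 to 5.81. LGALS3BP, a secreted glycoprotein, read 5.23 and 5.50 in Karpas299, 7.50 and 8.01 in DEL and 8.64 and 9.24 in SUPM2, and IFIT5 read 4.02 and 4.03 against 4.76 to 5.46. The median difference of the list was 0.11.

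Surface receptors of migration and checkpoint control gave smaller numbers. CXCR4, the receptor of CXCL12, read 7.71 and 7.64 in Karpas299, 5.24 and 4.20 in DEL and 6.13 and 6.29 in SUPM2. S1PR1, the receptor that guides lymphocyte egress, read 9.94 and 9.40 against 7.07 to 8.10. SIRPG, a CD47-binding receptor of T cells, read 7.17 and 5.78 against 4.07 to 4.36. CD48, a ligand of the SLAM family receptor 2B4, read 6.53 and 7.53 against 4.75 to 5.41 and was the one of these that passed (limma adjusted p = 0.0468). Among chemokine and related receptors 6 of 23 were higher (26.1%) and 1 lower (4.35%). Among checkpoint genes 8 of 30 were higher (26.7%) and 2 lower (6.67%), with 13 higher when SUPM2 SP was left out. CD274 (PD-L1) overlapped, at 9.96 and 9.69 against 9.01 to 9.99.

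ABCG2 and ABCB1 encode pumps that remove Hoechst dye. ABCG2 read 6.49 and 6.86 in Karpas299, 5.87 and 4.65 in DEL and 4.49 and 4.19 in SUPM2, and its gap of 0.62 did not give a call (limma adjusted p = 0.228). In Karpas299 the SP array was the lower of the pair. ABCB1 overlapped, at 3.51 and 3.44 against 3.06 to 4.01.

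Genes of matrix and calcium-binding proteins lay below the range more often than above it. Of 43 collagens, 10 were lower (23.3%) and 0 higher, and of 30 S100 and annexin genes 10 were lower (33.3%) and 3 higher. COL12A1, a fibril-associated collagen, read 3.89 and 4.26 in Karpas299 and 6.27 to 6.93 elsewhere (limma adjusted p = 0.0343). ANXA3 read 6.81 and 6.89 against 8.84 to 9.72 (limma adjusted p = 0.0437). Apart from COL12A1, the collagens below the range had gaps of at most 0.37, and without DEL MP 16 were lower. Without SUPM2 SP 4 collagens and 7 S100 and annexin genes were higher, and without Karpas299 SP 3 and 5. VIM, vimentin, read 10.25 and 9.87 against 11.37 to 11.69 (limma adjusted p = 0.0743), and ADAM9, a membrane protease, read 7.05 and 6.37 against 8.66 to 9.05 (limma adjusted p = 0.039).

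Zinc finger genes of the ZNF family were below the range in 70 of 480 cases (14.6%) and above it in 26 (5.42%). ZNF32 read 4.02 and 4.04 in Karpas299 and 5.72 to 6.30 elsewhere, and was the only member called (limma adjusted p = 0.0302). ZNF182 read 5.03 and 5.35 against 6.54 to 8.76. Without Karpas299 SP 144 were below the range and 63 above it, without Karpas299 MP 129 and 74, and without SUPM2 SP 86 and 52.

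Among transcription factors, SATB1, a chromatin organiser of T cells, was lower, at 4.61 and 4.40 in Karpas299 and 6.41 to 7.70 elsewhere. PAX5, the B-cell commitment factor, lay above the range, at 6.65 and 6.78 against 4.64 to 5.51 (limma adjusted p = 0.101). The list of B-cell markers had 2 of 20 members above the range (10%) and 4 below (20%). MYC overlapped, at 10.46 and 9.40 in Karpas299, 10.37 and 10.54 in DEL and 8.15 and 8.0 in SUPM2.

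One microRNA gene passed the test. MIR15A read 6.16 and 5.45 in Karpas299, 4.09 and 3.43 in DEL and 3.47 and 3.38 in SUPM2 (difference 2.21 ± 0.23, limma adjusted p = 0.0356). MIR16-1, from the same cluster on chromosome 13, overlapped at 2.41 and 2.73 against 2.19 to 2.67. All of these MIR16-1 values lay within the dimmest 25% of their arrays, whose upper limit was 3.66 to 3.76, so its overlap shows little. The MIR15A values of DEL MP and of both SUPM2 arrays lay there too, so the size of its difference is uncertain. A gene array reads the longer transcript around such a gene, so these levels are not those of the mature RNA. The mature RNAs are shown because they share a seed, bases 2 to 8, printed in capitals.
hsa-miR-15a-5p: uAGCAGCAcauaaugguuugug
hsa-miR-16-5p: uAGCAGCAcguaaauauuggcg
They lie at chr13:50049167-50049188 and chr13:50049027-50049048 on the minus strand (RefSeq, GRCh38.p14). In all, 16 of 189 microRNA genes were above the range and 18 below, both shares under the background.

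The position of genes was not used by the rule, and shares outside the range differed between chromosomes. On chromosome 16, 176 of 759 measured genes were higher (23.2%) and 41 lower (5.4%), and on chromosome 18, 51 of 264 were higher (19.3%). On chromosome 10, 139 of 679 were lower (20.5%), and on chromosome 5, 158 of 783 (20.2%), with 5.45% and 5.75% higher. In each of these the share stayed above that of all genes in the named direction when any single array was left out. Against SUPM2 alone, chromosome 18 had 25.8% higher against 22.8% over all genes, and against DEL alone 46.2% against 27.7%. With DEL set apart, 23.5% of the genes of chromosome 18 were lower in DEL, against 13.5% over all genes.

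Within chromosomes the shares came in stretches. In 369 blocks of about 50 neighbouring genes, a division made after the data were seen, the median block had 10% higher and 8.33% lower. The first 5 blocks of chromosome 16, from WASIR2 to THUMPD1, had 31.4% to 39.2% higher and at most 3.92% lower. The block from H2AC21 to POGZ on chromosome 1 had the highest share of all, 46%, while on the same chromosome blocks from LYPLAL1 to COQ8A and from CDC42BPA to PCNX2 had 40% and 38% lower.

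The longest run of neighbouring higher genes was also on chromosome 16. COG7, GGA2, EARS2, UBFD1, NDUFAB1 and PALB2 were all above the range, with gaps of 0.16 to 0.49. MT1JP, MT1DP, MT1B, MT1F and MT1G formed the next, and GNE, MELK, PAX5, ZCCHC7 and GRHPR on chromosome 9 the third. Lower runs were SLC60A1, ELK4, SLC45A3, NUCKS1 and RAB29 on chromosome 1, STAMBPL1, ACTA2-AS1, ACTA2 and FAS on chromosome 10, and RASSF5, EIF2D, DYRK3 and MAPKAPK2 on chromosome 1. No gene of these runs passed the test by limma on its own. Overlapping genes and antisense partners such as ACTA2 and ACTA2-AS1 can share probes. Copy number was not measured here, and its part in these stretches was not tested.

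**Figure D5:**
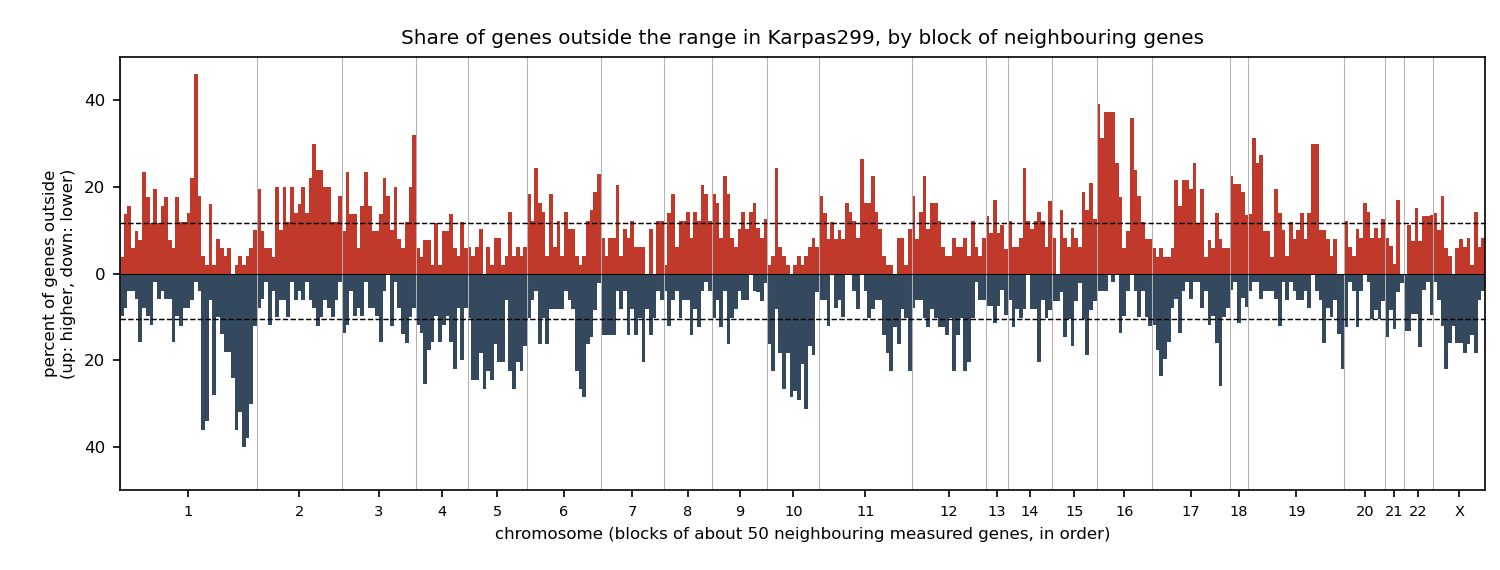
Share of genes higher (up) and lower (down) in Karpas299 in each of 369 blocks of about 50 neighbouring measured genes, in percent, along the chromosomes in order; dashed lines mark the shares over all genes. The tallest bars are a block of chromosome 1 at 46% and the first of chromosome 16 at 39.2%, and 2 neighbouring blocks of chromosome 1 reach 40% and 38% lower.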

How the data were processed

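The values are the submitters' series matrix of Affymetrix gene arrays, deposited by the authors as log2 signals after RMA, per the submitters' processing notes; the software version and array build are not given in the sources used here, nor whether all arrays were normalized together. Of 33297 probe sets, 19460 carried 1 gene symbol in the platform annotation, 1754 several and 12083 none, and 19429 matched RefSeq by Entrez identifier. Where a gene had several probe sets (769 of 18417 genes), its value is that of the probe set with the highest average signal. Of the 12 columns, 6 were used.

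Differences were fitted with limma 3.58.1 (R 4.3.3): lmFit and eBayes with Karpas299 and population as terms, 3 residual degrees of freedom, two-sided, Benjamini-Hochberg adjustment over all genes, threshold 0.05. The script was tested on simulated data. The simulation without changed genes held no differences between lines, unlike these arrays, so it does not show how often line differences alone give calls. No detection calls were used, and the small number of arrays limits precision.

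Members and lists (53 by symbol, 16 families by symbol pattern) were chosen with earlier results of these data known. Genes to name were drawn from the 20 largest gaps in each direction and up to 6 members per list outside the range by gap. The genes of 3 runs per direction and fixed markers were added. The text names only part of these sets, and which members it names was not fixed by this rule. For example, FLG2, LACTB2, CHPT1 and the fixed marker IL2RA are not described. Other presentation, receptor, serine synthesis and regulator genes (such as HLA-DMA, HLA-DPB1, CD3D, ATF4, PHGDH and SLC7A11) were chosen after their values were seen. Genes of the Y chromosome and XIST are not named. Chromosomes and gene order are from RefSeq. Alternatives tried were renormalization, a filter on dim genes, averaged probe sets, arrays or lines left out, and other fits.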

Additional observations from a re-analysis of the deposited data

How the results depend on the processing

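The counts outside the range kept within 1.5 times of 2130 and 1930 under renewed quantile normalization, median centring, averaged probe sets and omission of the dimmest 25% of genes. A gap of at least 1 left 135 and 117. Against DEL alone 5106 were higher and 3930 lower, and against SUPM2 alone 4192 and 5172, as fewer arrays define a narrower range. Leaving out each array in turn gave 2489 to 3822 higher and 2440 to 3849 lower. Limma calls (59 higher, 40 lower) ranged from 0 to 10 and 0 to 7 with each array left out, where unadjusted p under 0.05 held for 929 to 2223 genes; a fit that leaves Karpas299 with 1 array assumes that it varies like the other groups. They were 406 and 341 with line as a factor, 0 and 0 with SP and MP averaged per line, 20 and 12 with line as a random block (correlation 0.30), 98 and 78 without the population term, 313 and 407 against DEL alone, and 548 and 321 against SUPM2 alone. The line factor takes the DEL to SUPM2 difference out of the error. For genes outside the range the rule fixes the sign of a difference when arrays are left out. List counts above 2 that moved by over 1.5 times with 1 array left out are given beside them, and counts of 0 to 2 became at most 7. These list alternatives were added after the data were seen. No paired analysis was possible because the labels number replicates only for SUDHL-1, which was not used. Fits with population as a term and line as a block are given above.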
